A study of Mus musculus with 18 samples.

Results

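The genes described here encode the COPII coat, the protein shell that buds transport vesicles from the endoplasmic reticulum (ER). Members were chosen by gene symbol and found by Ensembl identifier in the gene counts of all mice, which gave 10 genes (*Sar1b*, *Sec16a*, *Sec23a*, *Sec23b*, *Sec24a*, *Sec24b*, *Sec24c*, *Sec24d*, *Sec13* and *Sec31a*) of the 22524 genes counted. All 10 passed the filter on low counts, which kept 13353 genes. Liver RNA was sequenced from 10 A226Y mice and 8 wild-type (WT) mice, 1 library per mouse, all female, 15 months old and on the C57BL/6 strain. A226Y mice are heterozygous for the ribosomal ambiguity mutation *Rps2*-A226Y, which raises the rate of translation errors. The mutant allele is switched on by a Cre recombinase that the CMV promoter drives in every tissue, and the WT controls carry that Cre transgene too. The A226Y mice are mosaic, since excision of the loxP-flanked stop cassette was partial, so their livers also hold cells in which the targeted *Rps2* allele is still silent. The question put to these data was whether the coat of the first step of secretion was expressed at another level in livers that translate with more errors.

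Proteins made at the ER leave it in COPII vesicles. The small GTPase SAR1 starts assembly at exit sites that the scaffold SEC16 organises, and it recruits the inner coat of SEC23 and SEC24, after which cages of SEC13 and SEC31 bend the membrane. SEC23 is the GTPase-activating protein of SAR1, and SEC24 binds the export signals of cargo. Hepatocytes secrete albumin, clotting factors and lipoproteins through this route, and SAR1B is known for its part in the export of large lipoprotein particles.

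The RNA of 2 coat genes, *Sec13* of the outer cage and *Sec23a* of the inner coat, was called higher in the A226Y mice, by 22.5% and 20.4%. That is 20% of the 10 genes, beside 7.27% of all genes tested. Both calls were lost in a fit with 4 surrogate variables, and that of *Sec23a* also after a correction for GC content. The other 8 genes did not pass the test in either direction. The DNA just upstream of both start sites is shown here because these are the members called. On GRCm38, *Sec13* (ENSMUSG00000030298) spans chromosome 6 from 113728062 to 113740743 and *Sec23a* (ENSMUSG00000020986) chromosome 12 from 58958383 to 59012017, both on the minus strand. The sequences are the RefSeq promoter windows (GRCm38.p6, minus strand, 5′ to 3′), limited to bases outside the annotated gene, which are 188 bases at chr6:113740744-113740931 and 250 bases at chr12:59012018-59012267.
Sec13 upstream: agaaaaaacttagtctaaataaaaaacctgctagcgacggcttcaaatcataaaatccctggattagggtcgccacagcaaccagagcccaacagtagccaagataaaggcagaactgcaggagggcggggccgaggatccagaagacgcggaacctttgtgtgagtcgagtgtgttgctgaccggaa
Sec23a upstream: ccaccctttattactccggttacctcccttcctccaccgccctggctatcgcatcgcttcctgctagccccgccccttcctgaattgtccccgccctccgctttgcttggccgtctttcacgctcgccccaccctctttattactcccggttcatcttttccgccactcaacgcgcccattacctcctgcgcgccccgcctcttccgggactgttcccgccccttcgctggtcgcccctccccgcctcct
Bases G and C made up 50% of the 188 bases of *Sec13* and 64.0% of the 250 bases of *Sec23a*. Over its full 250 upstream bases the *Sec13* window held 54.4%. The median over the 250 upstream bases of all 32817 promoter windows was 52.4%.

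The windows of all 10 genes (12 windows, as *Sec23b* and *Sec31a* have a pair each, from 250 bases before to 50 after the start) were searched on both strands for 4 motifs of ER stress and cyclic AMP factors. The windows follow RefSeq starts. Those of *Sec24a* and *Sec24b* (upstream bases chr11:51756835-51757084 and chr3:130060908-130061157) lie inside the annotated genes. The annotated starts of these genes, at 51763634 and 130061553, had no window of their own. The unfolded protein response element core TGACGTGG was found in 2 of 12 member windows and in 0.676% of all windows. The other motifs were found in none of the member windows. They were the ER stress element ERSE, held by 0.119% of all windows, its second form ERSE-II, held by 0.0366%, and the cyclic AMP response element TGACGTCA, held by 1.79%. The letters CCACG, with which ERSE and ERSE-II end, are also found in the reverse complement of TGACGTGG. Both matches are printed with the motif in capitals, on the strand of the gene. In *Sec24d* the match began 26 bases before the RefSeq start (chr3:123267459-123267488, plus strand), and in *Sec23a* at base 7 of the transcript (chr12:59011993-59012022, minus strand).
Sec24d: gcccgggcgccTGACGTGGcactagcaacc
Sec23a: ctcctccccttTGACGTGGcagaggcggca
Of the genes with a match, *Sec23a* rose in the A226Y mice and *Sec24d* did not pass the test. A match describes letters in a window and was not tested as a binding site.

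Counts were scaled between libraries with the TMM method, given as CPM (a gene's counts over 1000000 scaled counts of the library), and compared with edgeR's quasi-likelihood test, which is two-sided. A gene is called changed at a Benjamini-Hochberg adjusted p under 0.05 over all tested genes. Total counts ranged from 23850565 to 62126131 in A226Y mice and from 25869192 to 34918732 in WT mice, and animal 23 of the A226Y group was the deepest. *Rps2* itself, counted over both alleles, was 68.58 ± 13.26 CPM (SD, n = 10) against 114.1 ± 13.03 CPM (SD, n = 8), with every A226Y mouse below every WT mouse. Over all genes, 7.27% were called higher and 7.03% lower, and 29.6% had an unadjusted p under 0.05. With library size as the only scaling the calls were 1399 higher and 660 lower, beside 971 and 939 here, and the median log2 fold change of all genes moved from −0.00 to 0.04. SDs and p-values rest on the spread between single mice. In liver as a whole, fewer cells of a type and less RNA per cell cannot be told apart. The summed hepatocyte markers overlapped between groups (83050 to 159000 CPM in A226Y and 100600 to 183700 CPM in WT), with 3 of 10 higher (*Apob*, *Tat* and *Cps1*), or 1 of 10 without A226Y animal 7 or WT animal 14, 21 or 24. Of the markers of other liver cells, *Clec4f* of Kupffer cells (1 of 8) and *Col1a1*, *Col1a2* and *Col3a1* of fibroblasts (3 of 8) were lower, and none of 9 leukocyte, 8 endothelial or 6 cholangiocyte markers was called by edgeR or DESeq2 (1 of each list at an unadjusted p under 0.05 in edgeR). Exceptions were 1 leukocyte marker lower without A226Y animal 29 and 1 cholangiocyte marker higher with 4 surrogate variables. The summed Kupffer cell markers ran from 278.5 through a median of 376.9 to 1083 CPM in A226Y and from 415.6 through 604.1 to 841.1 CPM in WT mice. Of these 8 markers 7 had negative log2 fold changes and 4 an unadjusted p under 0.05, and the list median was −0.43. The number called lower by edgeR went from 1 to 5 without A226Y animal 29, 3 without A226Y animal 5 or WT animal 6, 2 without WT animal 24 and 0 without WT animal 14, and it was 2 by DESeq2. With 4 surrogate variables the Kupffer list median was −0.05, and the calls of the hepatocyte, Kupffer and fibroblast lists were all 0. Of the 8 stellate cell and fibroblast markers 3 had positive log2 fold changes, and the list median was −0.08. The median of their sum was 354.6 CPM in A226Y and 322.4 CPM in WT mice. DESeq2 and the length correction each called 1 of them higher and 3 lower. Without WT animal 6, 1 was higher and 2 lower, and without WT animal 14, 2 were lower. The other sums also overlapped, at 15.8 to 76.3 and 17.1 to 64.9 CPM for leukocytes, 293.4 to 444.3 and 308.9 to 421.6 CPM for endothelium, 312.5 to 372.3 and 304.5 to 382.9 CPM for stellate cells and fibroblasts, and 23.1 to 38.2 and 21.9 to 37.7 CPM for cholangiocytes, in A226Y and WT mice in turn. No marker was at 0 in every mouse, and the part of these markers in the coat genes' values was not tested.

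Of the coat genes, 2 of 10 were called higher (20% beside 7.27% of all genes) and 0 of 10 lower (beside 7.03%) by edgeR. DESeq2 called 3 higher, with *Sec16a* added, and limma-voom 2, and both called 0 lower. With 4 surrogate variables in edgeR 0 were called in either direction. With the text's edgeR settings none was lower at an unadjusted p under 0.05, and with the GC correction 1 was (*Sar1b*). An unadjusted p under 0.05 was reached by 3 of 10, or 30%, beside 29.6% of all genes. The median log2 fold change of the 10 genes was 0.06, beside −0.00 over all tested genes, and 6 of the 10 estimates were positive. With 4 surrogate variables the median of the 10 was −0.01. The sum of the 10 genes ran from 920.3 to 1134.6 CPM in A226Y mice and from 947.2 to 1057.9 CPM in WT mice, so the groups overlapped and the A226Y mice reached farther in both directions. For no coat gene were the groups apart, which was so for 0.352% of all genes with A226Y higher and 0.285% with A226Y lower. Over the 10 genes, the 95% intervals of the change ran from 18.8% lower to 35.0% higher.

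**Figure D1:**
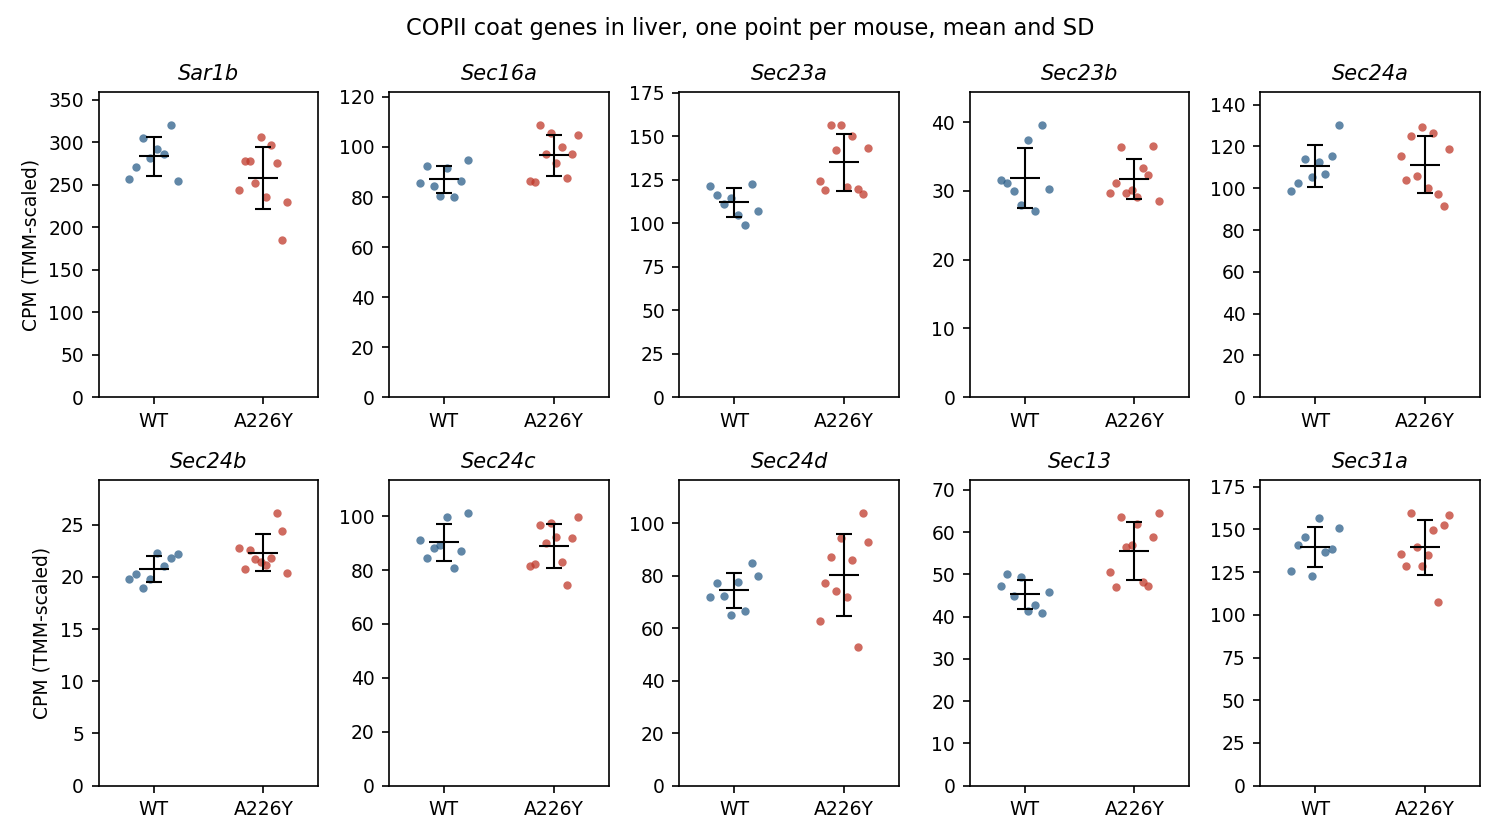
CPM of each COPII gene in every mouse (1 point per mouse, bars mean and SD, WT n = 8 and A226Y n = 10, each panel on its own axis). For *Sec13* and *Sec23a* all 10 A226Y mice lie above the WT mean, and in every panel the groups overlap.

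The standard error (SE) of a log2 fold change is given with it. *Sar1b*, the GTPase that starts the coat (chromosome 11, 51763687 to 51791925, plus strand), was the most abundant coat gene. It ran from 184.5 through a median of 263.7 to 305.6 CPM in A226Y mice and from 254.6 through 283.7 to 320.5 CPM in WT mice. Of the A226Y mice, 8 of 10 were below the WT mean and 5 below every WT mouse, and animal 29 was the lowest. It differed by −0.13 on the log2 scale (SE 0.08, edgeR adjusted p = 0.295), with a 95% interval from −0.30 to 0.03, so no change was called. Without animal 29 it was −0.09 (edgeR adjusted p = 0.370), with the transcript length correction −0.07 (edgeR adjusted p = 0.664) and with the GC content correction −0.21 (edgeR unadjusted p = 0.0138, adjusted p = 0.0801). Its paralog *Sar1a*, not one of the 10, was 105.5 ± 7.54 CPM in A226Y (SD, n = 10) and 99.1 ± 5.25 CPM in WT mice (SD, n = 8), with a log2 fold change of 0.09 (edgeR adjusted p = 0.250).

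*Sec16a*, the scaffold of ER exit sites (chromosome 2, 26409431 to 26445216, minus strand), ran from 86.1 through a median of 97.3 to 108.9 CPM in A226Y and from 80.1 through 86.0 to 94.9 CPM in WT mice. Of the A226Y mice, 8 of 10 were above the WT mean and 6 above every WT mouse. It differed by 0.15 on the log2 scale (SE 0.06), the unadjusted p from edgeR was 0.0157 and the adjusted p 0.0795, so the gene missed the threshold. It was called under DESeq2 (0.15, adjusted p = 0.0450), with library size as the only scaling (0.20, edgeR adjusted p = 0.0302) and after a correction for GC content (0.18, edgeR adjusted p = 0.0459). After a correction for transcript length the log2 fold change of *Sec16a*, whose transcript of 8737 bases is the longest of the 10, was 0.02 (edgeR adjusted p = 0.811), and with 4 surrogate variables it was 0.04 (edgeR adjusted p = 0.837). Long transcripts (at least 5000 bases) were higher relative to short ones (under 1500 bases) in A226Y mice over all genes, by 0.18 on the log2 scale (exact permutation test, two-sided, p = 0.00309).

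*Sec23a* and *Sec23b* encode the paralogs that turn over GTP on SAR1. *Sec23a* ran from 116.8 through a median of 133.3 to 156.7 CPM in A226Y mice and from 99.0 through 112.9 to 122.7 CPM in WT mice. All 10 A226Y mice lay above the WT mean and 6 above every WT mouse. The means were 135.0 ± 16.4 CPM (SD, n = 10) and 112.1 ± 8.23 CPM (SD, n = 8). *Sec23a* rose by 0.27 on the log2 scale (SE 0.07, 95% interval 0.12 to 0.41, edgeR adjusted p = 0.0195). Leaving out any single mouse kept the call, at log2 fold changes from 0.24 to 0.29. The call was lost with 4 surrogate variables (0.13, edgeR adjusted p = 0.498) and after the correction for GC content (0.20, edgeR adjusted p = 0.0549). An annotated antisense gene overlaps exons of *Sec23a*, and whether reads were assigned by strand is not given in the sources used here, so reads of that gene could be among the counts.

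*Sec23b* (chromosome 2, 144556229 to 144590749, plus strand) ran from 28.6 through a median of 30.6 to 36.6 CPM in A226Y mice and from 27.02 through 30.69 to 39.63 CPM in WT mice. The A226Y values lay within the WT range. It differed by −0.01 on the log2 scale (SE 0.07, edgeR adjusted p = 0.955), with a 95% interval from −0.15 to 0.14.

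The pair was also compared within each mouse, which does not depend on scaling between libraries. Such ratios were not corrected for transcript length, so the difference between long and short transcripts given above can enter them. Of 9 ratios between partner or paralog genes tested in this way, with adjustment over the 9, the log2 ratio of *Sec23b* to *Sec23a* counts was −2.09 ± 0.21 in A226Y (SD, n = 10) and −1.82 ± 0.18 in WT mice (SD, n = 8). The difference was −0.26 (SE 0.09, two-sided exact permutation test, p = 0.0132, adjusted p = 0.0584), with 9 of 10 A226Y mice below the WT mean and 7 below every WT mouse. It missed the threshold, and passed it when A226Y animal 5, 23 or 29 or WT animal 4 or 14 was left out (exact permutation test, adjusted p down to 0.0137). Per kilobase of transcript, *Sec23a* made up 74.1 ± 2.88% of the *Sec23* RNA in A226Y (SD, n = 10) and 70.5 ± 2.62% in WT mice (SD, n = 8), so *Sec23a* was the larger part of the pair in both.

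The *Sec24* paralogs encode the cargo-binding subunits, which differ in the export signals they hold. *Sec24a* (chromosome 11, 51692264 to 51763634, minus strand) was 111.3 ± 13.4 CPM in A226Y (SD, n = 10) and 110.7 ± 9.91 CPM in WT mice (SD, n = 8). *Sec24b* (chromosome 3, 129982759 to 130061553, minus strand) was 22.3 ± 1.77 and 20.8 ± 1.26 CPM. *Sec24c* (chromosome 14, 20674308 to 20694852, plus strand) was 88.9 ± 8.26 and 90.2 ± 7.01 CPM. None of these 3 passed the test, and their log2 fold changes were 0.01, 0.11 and −0.02 (SEs 0.07, 0.05 and 0.06, adjusted p = 0.954, 0.197 and 0.856 from edgeR). Of the A226Y mice, 9 of 10 had more *Sec24b* than the WT mean.

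*Sec24d* (chromosome 3, 123267455 to 123365641, plus strand) had the widest spread of the 10 genes in the A226Y mice relative to its mean. It ran from 52.7 through a median of 81.6 to 103.9 CPM in A226Y and from 65.1 through 74.9 to 84.9 CPM in WT mice. The A226Y range reached past the WT range on both sides, with a coefficient of variation of 19.4% beside 9.06%. Animal 23, which was also the deepest library, was the lowest and animal 29 the highest. The groups differed by 0.11 on the log2 scale (SE 0.11, edgeR adjusted p = 0.522), and it was 0.16 without animal 23 and 0.06 without animal 29.

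Per kilobase of transcript, *Sec24c*, *Sec24d* and *Sec24a* made up 33.6 ± 1.62%, 31.7 ± 1.73% and 27.9 ± 1.32% of the *Sec24* RNA in WT mice (SD, n = 8), and *Sec24b* 6.73 ± 0.34%. In A226Y mice the shares were 32.3 ± 1.73%, 33.1 ± 3.72%, 27.5 ± 2.77% and 7.14 ± 1.23% (SD, n = 10). On this length the shares of *Sec24c* and *Sec24d* lay within their spread of each other, while with the union of exons as length they did not in WT mice (35.9 ± 1.65% and 29.5 ± 1.65%), and *Sec24b* was the smallest part in both groups. None of the 6 ratios among *Sec24* paralogs differed between groups by the exact permutation test, with differences from −0.13 for *Sec24c* over *Sec24b* to 0.11 for *Sec24d* over *Sec24c* on the log2 scale and adjusted p from 0.339 to 0.914.

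The outer cage showed a change in one partner. *Sec13* ran from 47.0 through a median of 56.7 to 64.5 CPM in A226Y mice and from 40.9 through 45.4 to 49.99 CPM in WT mice. All 10 A226Y mice lay above the WT mean and 7 above every WT mouse. The means were 55.5 ± 6.83 CPM (SD, n = 10) and 45.3 ± 3.44 CPM (SD, n = 8). *Sec13* rose by 0.29 on the log2 scale (SE 0.07, 95% interval 0.15 to 0.43, edgeR adjusted p = 0.0118). It stayed called with each mouse left out (0.27 to 0.32) and after the corrections for transcript length (0.36, edgeR adjusted p = 0.00518) and GC content (0.32, edgeR adjusted p = 0.00830). With 4 surrogate variables the call was lost (0.15, edgeR adjusted p = 0.384).

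*Sec31a* (chromosome 5, 100361649 to 100416234, minus strand), which lines the cage with SEC13, ran from 107.6 through a median of 137.8 to 159.5 CPM in A226Y and from 122.9 through 139.6 to 156.4 CPM in WT mice. The groups overlapped almost whole, and the lowest A226Y value was that of animal 23. The groups differed by −0.00 on the log2 scale (SE 0.07, edgeR adjusted p = 0.992), with a 95% interval from −0.15 to 0.14.

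Within a mouse, the log2 ratio of *Sec31a* to *Sec13* counts was 1.33 ± 0.15 in A226Y (SD, n = 10) and 1.62 ± 0.20 in WT mice (SD, n = 8). It fell by 0.29 (SE 0.09, two-sided exact permutation test, p = 0.00357, adjusted p = 0.0321 over the 9 ratios). Of the A226Y mice, 9 of 10 lay below the WT mean and 5 below every WT mouse. The call was lost when any 1 of 9 mice was left out (A226Y animals 11, 15, 18 and 32 and WT animals 13, 21, 24, 28 and 33), where the difference stayed negative and the adjusted p of the exact permutation test reached 0.0717. For *Sar1b* over *Sar1a* the log2 ratio was 1.28 ± 0.22 in A226Y (SD, n = 10) and 1.51 ± 0.14 in WT mice (SD, n = 8), a difference of −0.23 (SE 0.09, exact permutation test, p = 0.0195, adjusted p = 0.0584) with 8 of 10 A226Y mice below the WT mean. This ratio passed the threshold without A226Y animal 5 or 22 or WT animal 4 (exact permutation test, adjusted p down to 0.0256).

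**Figure D2:**
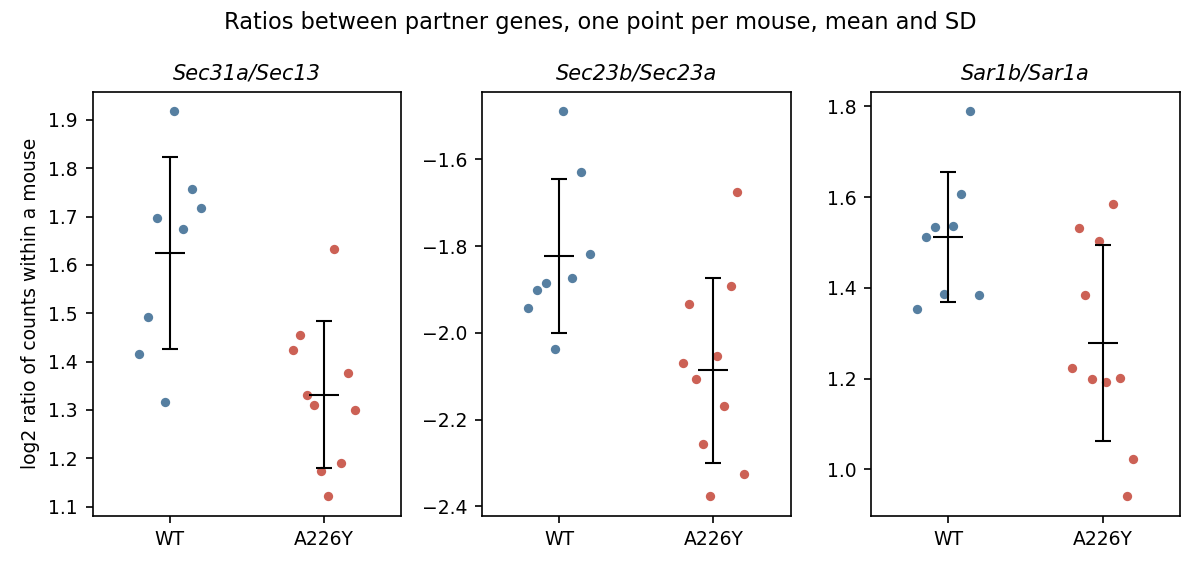
Log2 ratio of counts within each mouse for *Sec31a* over *Sec13*, *Sec23b* over *Sec23a* and *Sar1b* over *Sar1a* (1 point per mouse, bars mean and SD, WT n = 8 and A226Y n = 10). The A226Y mean lies below the WT mean by 0.29, 0.26 and 0.23, and the groups overlap in each panel.

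Levels of different coat genes were compared per kilobase of the principal transcript. In WT mice *Sar1b* was at 235.8 ± 18.9 CPM per kilobase (SD, n = 8), well above the rest. *Sec13* and *Sec31a* followed at 33.47 ± 2.54 and 33.04 ± 2.71 CPM per kilobase and lay within their spread of each other. *Sec23a* came next at 27.3 ± 2.004 CPM per kilobase, apart from its neighbours by more than their SDs. *Sec24c* at 20.2 ± 1.57, *Sec24d* at 19.1 ± 1.73 and *Sec24a* at 16.8 ± 1.51 CPM per kilobase followed, each overlapping the next within 1 SD. *Sec23b* at 11.5 ± 1.59 and *Sec16a* at 9.96 ± 0.63 CPM per kilobase also overlapped, and *Sec24b* was lowest at 4.05 ± 0.25. In A226Y mice *Sec13* was at 41.0 ± 5.05 and *Sec23a* at 32.8 ± 3.98 CPM per kilobase (SD, n = 10), beside 33.01 ± 3.81 for *Sec31a*. The order depends on the length used, since the annotated exons of *Sec13* add up to 3184 bases beside a transcript of 1353 bases.

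**Figure D3:**
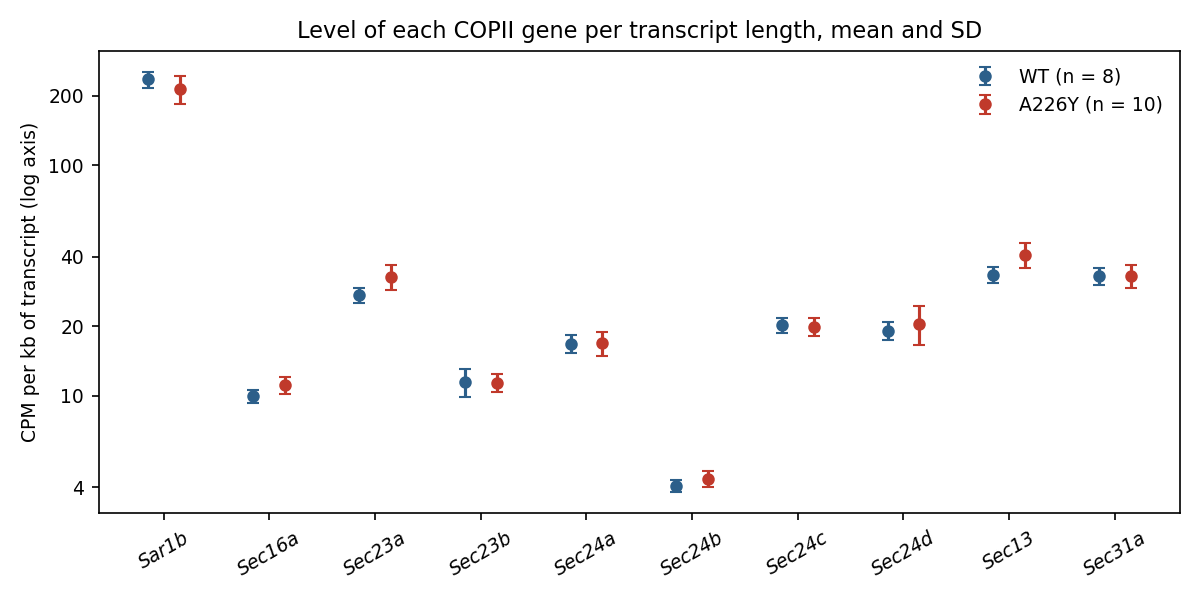
Level of each COPII gene in CPM per kilobase of transcript on a log axis (points mean, bars SD, WT n = 8 and A226Y n = 10). *Sar1b* stands highest at 235.8 in WT mice and *Sec24b* lowest at 4.05, with the other genes between 9.96 and 33.5.

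**Figure D4:**
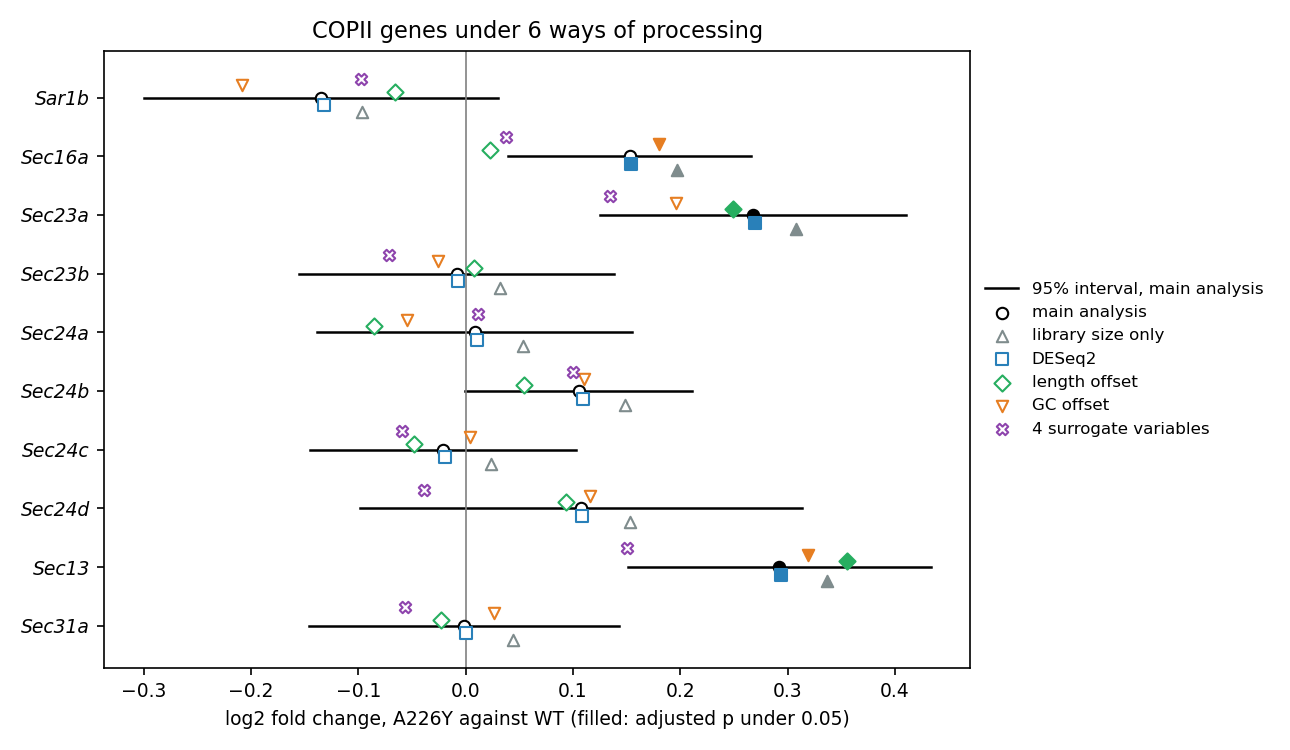
Log2 fold change (A226Y minus WT) of each COPII gene under 6 ways of fitting, with filled markers for an adjusted p under 0.05 and the 95% interval drawn for the fit of the text. *Sec13* and *Sec23a* are positive in all of them and uncalled with surrogate variables, where they are 0.15 and 0.13.

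The coat genes also varied from mouse to mouse within a genotype. After subtraction of the genotype means, Pearson's r of log2 CPM over the 18 mice was positive for 30 of 45 gene pairs and negative for 15, with a median of 0.33. Pairs of genes outside the coat were not computed, so whether these values are particular to the coat was not tested. The same libraries carry all the genes, so depth and composition are shared by each pair of points. The relations with an adjusted p under 0.05 over the 45 pairs were 5, all positive. *Sec16a* varied with *Sec24c* (r = 0.76, rho = 0.75, permutation test, adjusted p = 0.0315 and 0.0277) and with *Sec24d* (r = 0.72, rho = 0.76, permutation test, adjusted p = 0.0396 and 0.0277). Without the 2 mice farthest from the median these r values were 0.74 and 0.78, and within the A226Y and WT mice apart they were 0.82 and 0.64 for *Sec24c* and 0.73 and 0.77 for *Sec24d*. The other 3 pairs were *Sec24d* with *Sec31a* (r = 0.71, rho = 0.62), *Sec16a* with *Sec31a* (r = 0.67, rho = 0.66) and *Sec24c* with *Sec24d* (r = 0.67, rho = 0.59), each with an adjusted p of 0.0400 for r by the permutation test. For these 3 the adjusted p for rho was 0.0985, 0.0985 and 0.108, and r without the 2 farthest mice was 0.47, 0.60 and 0.46. Within the A226Y mice their r was 0.75, 0.66 and 0.77 and within the WT mice 0.60, 0.69 and 0.38.

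The called genes did not stand among these pairs. Their highest r were 0.62 for *Sec13* with *Sec24c* and 0.62 for *Sec23a* with *Sec16a* (permutation test, adjusted p = 0.0717 and 0.0827). Within the A226Y and WT mice apart, r was 0.91 and −0.105 for *Sec13* with *Sec24c*, and 0.83 and 0.04 for *Sec23a* with *Sec16a*. *Sec13* with *Sec23a* gave r = 0.33 and rho = 0.28 (permutation test, adjusted p = 0.384 and 0.482), and *Sec13* with its cage partner *Sec31a* r = 0.35 and rho = 0.29 (permutation test, adjusted p = 0.353 and 0.432). Within the A226Y and WT mice apart, r was 0.34 and 0.31 for *Sec13* with *Sec23a*, and 0.63 and −0.50, of opposite sign, for *Sec13* with *Sec31a*. The most negative r was that of *Sec13* with *Sar1b* (r = −0.46, rho = −0.52, permutation test, adjusted p = 0.268 and 0.169). *Sec24a* and *Sar1b* lie head to head on chromosome 11 with annotated gene starts 53 bases apart, and gave r = 0.52 and rho = 0.37 (permutation test, adjusted p = 0.152 and 0.380). Within the A226Y and WT mice apart these were r = −0.42 and −0.63 for *Sec13* with *Sar1b* and 0.64 and 0.11 for *Sec24a* with *Sar1b*.

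**Figure D5:**
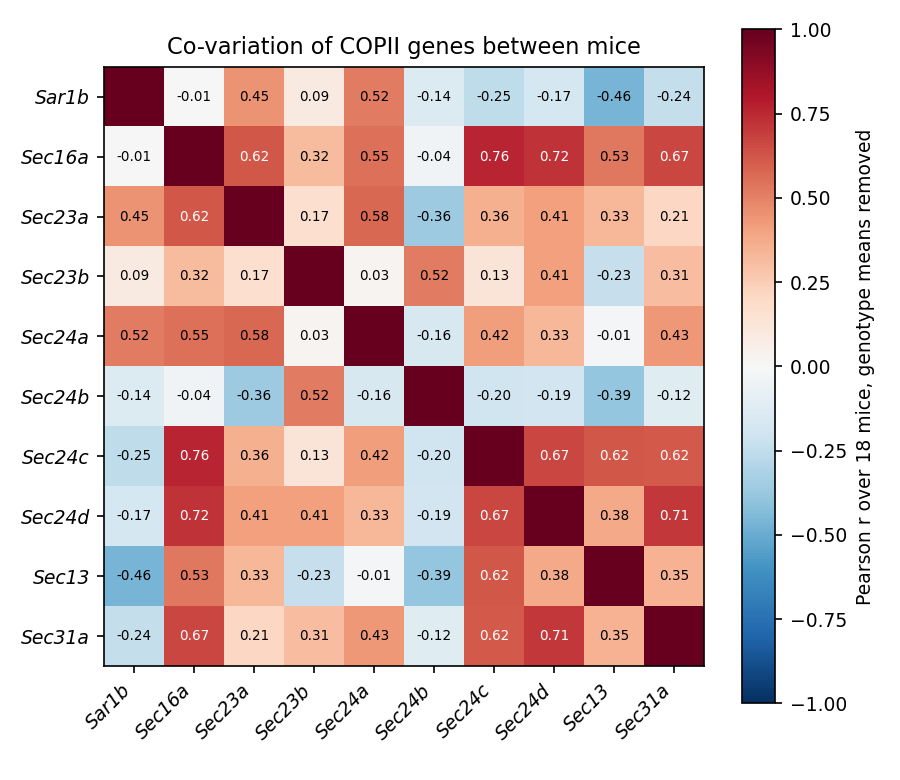
Pearson's r of log2 CPM between COPII genes over 18 mice after subtraction of the genotype means, from blue (negative) to red (positive). The highest r are those of *Sec16a* with *Sec24c* (0.76) and *Sec24d* (0.72), and the most negative is that of *Sec13* with *Sar1b* (−0.46).

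RNA of paralogs, assembly factors and regulators of the coat was taken as a list of 16 genes. Of these, 0 were called higher and 0 lower by edgeR, beside 7.27% and 7.03% of all genes. An unadjusted p under 0.05 was reached by 2 (12.5% beside 29.6% of all genes), and the median log2 fold change was 0.06. DESeq2, library size as the only scaling and the fit without A226Y animal 29 each called 1 of the 16 higher, and the fit without WT animal 6 called 1 lower. Among them are *Preb*, the exchange factor that loads SAR1 with GTP, at a log2 fold change of 0.09, *Tfg*, which clusters exit sites, at 0.05, and *Mia3* and *Mia2*, which fit large cargo, at 0.03 and −0.06. The paralogs *Sec16b* and *Sec31b* were at 0.10 and 0.07.

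A list of cargo receptors and other factors of ER export had 25 tested genes. Of these, 3 were higher (12% beside 7.27% of all genes) and 1 lower (4% beside 7.03%), with a median log2 fold change of −0.01. An unadjusted p under 0.05 was reached by 40% of them, beside 29.6% of all genes. Without A226Y animal 29, WT animal 4 or WT animal 6 the number higher was 5, by DESeq2 6 were higher and 2 lower, with library size as the only scaling 6 were higher, and with the GC correction 3 were lower. Without WT animal 21, 28 or 33, 2 were lower. *Tmed5*, a p24 family protein of early secretory vesicles, was 262.6 ± 22.7 CPM in A226Y (SD, n = 10) and 185.3 ± 19.3 CPM in WT mice (SD, n = 8). It rose by 0.50 on the log2 scale (SE 0.07, edgeR adjusted p = 0.000701), with every A226Y mouse above every WT mouse, and it was called under every alternative run, surrogate variables and each mouse left out included. *Tmed4* and *Tmed7* of the same family rose by 0.31 and 0.23. *Ergic3* fell by 0.33 on the log2 scale (SE 0.05, edgeR adjusted p = 0.00140), from 87.1 ± 5.32 CPM in WT (SD, n = 8) to 69.2 ± 5.07 CPM in A226Y mice (SD, n = 10), again with no overlap. The cargo receptors *Lman1* (−0.03), *Surf4* (0.02) and *Scap* (−0.19, edgeR adjusted p = 0.0705), which carry glycoproteins, lipoproteins and the SREBP precursors, were not called.

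Of 36 tested genes for tethering, fusion and retrieval at the Golgi, 6 were higher (16.7% beside 7.27% of all genes) and 0 lower by edgeR (beside 7.03%). DESeq2 called 8 higher and 1 lower. An unadjusted p under 0.05 in edgeR was reached by 30.6%, beside 29.6% of all genes. Without A226Y animal 15 or WT animal 4 or 28, 1 was lower, and 2 without WT animal 6. With the GC correction 4 were higher and 1 lower. *Bet1*, a SNARE, rose by 0.23 on the log2 scale, *Uso1*, the tether p115, by 0.22, *Gosr2*, a SNARE, by 0.20 and *Rab1a*, the GTPase of the step, by 0.20 (adjusted p = 0.0368, 0.00766, 0.00777 and 0.0303 from edgeR). The call of *Bet1* was lost with any 1 of 8 mice left out (A226Y animals 15, 22, 23 and 32, WT animals 13, 21, 24 and 33, edgeR adjusted p up to 0.073) and that of *Rab1a* with any 1 of 6 (A226Y animals 7, 15 and 32, WT animals 21, 24 and 33, up to 0.0556). Both calls also ended with the GC correction (0.13 and 0.11, edgeR adjusted p = 0.233 and 0.247), and that of *Bet1* with the filter of 1 count in any mouse (adjusted p = 0.0508). Of 17 genes of the COPI coat, which carries vesicles back to the ER, 4 were higher (23.5% beside 7.27%) and 1 lower (5.88% beside 7.03%), with 35.3% at an unadjusted p under 0.05 beside 29.6% of all genes. The coatomer subunits *Copb1*, *Arcn1* and *Copg1* rose by 0.26, 0.24 and 0.24 and the GTPase *Arf5* fell by 0.29 on the log2 scale (adjusted p = 0.00360, 0.00556, 0.0180 and 0.0219 from edgeR). Without WT animal 24 *Arf5* was not called (−0.24, edgeR adjusted p = 0.0512), nor with the GC correction (−0.22, edgeR adjusted p = 0.0775). The median log2 fold changes of these lists were 0.05 and 0.04, beside 0.06 for the COPII coat.

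Upstream of the coat, none of the 10 genes of the SEC61 channel and its TRAP partners was called in either direction, with 2 of 10 at an unadjusted p under 0.05 in edgeR (20% beside 29.6% of all genes). DESeq2 and library size as the only scaling called 2 higher, RLE size factors 1 higher and the GC correction 1 lower. Without A226Y animal 5, 22 or 29 or WT animal 6 or 14, 1 was called higher. None of 7 transcription factors of secretory genes was called by edgeR (beside 7.27% of all genes higher and 7.03% lower) or by DESeq2, and 1 had an unadjusted p under 0.05 in edgeR (14.3% beside 29.6% of all genes). With the GC correction, or without WT animal 6, 1 was called higher. *Creb3l2*, known to act on *Sec23a*, was at a log2 fold change of −0.09, *Atf6* at 0.15 and *Xbp1* at −0.14. Of 15 genes for cargo that hepatocytes send through the coat, *Apob* rose by 0.29 on the log2 scale (6.67% of the list beside 7.27% of all genes) and 4 genes were lower (26.7% beside 7.03%), with 53.3% at an unadjusted p under 0.05 beside 29.6% of all genes. DESeq2 called 7 of the 15 lower, the length correction 6, the GC correction 5 and limma-voom 3. Among the 4 were the sterol regulators *Srebf1* (−1.22) and *Srebf2* (−0.47) and the lipoprotein gene *Apoe* (−0.41), with adjusted p of 0.00551, 0.0151 and 0.00801 from edgeR. The call of *Apob* was lost with any 1 of 8 mice left out (A226Y animals 3, 7, 11 and 22, WT animals 13, 14, 21 and 24, edgeR adjusted p up to 0.0737) and after the length correction (0.13, edgeR adjusted p = 0.227), the GC correction (0.23, adjusted p = 0.0657) and the filter of 1 count in any mouse (adjusted p = 0.0543). *Srebf2* was not called with the GC correction (−0.41, edgeR adjusted p = 0.0505). With 4 surrogate variables *Tmed5* was the only gene of these secretory lists called by edgeR.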

How the data were processed

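Liver RNA of 18 mice was sequenced as single reads, 1 library per mouse. The authors deposited unnormalized read counts, as whole numbers for each Ensembl gene. The study's methods name RSEM with an Ensembl annotation, while the submitters' processing notes list STAR, featureCounts and GRCm38, and which of them made the counts, and whether strand was used, is not settled here. Antisense genes overlap exons of *Sec23a* and *Sec24c* and are not among the counted genes. Of the identifiers, 22291 of 22524 matched GENCODE M21 (GRCm38), which gave symbols, coordinates and principal transcripts.

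A gene was tested if 50% or more of either genotype's mice had 10 or more counts, with edgeR 4.0.16 (R 4.3.3), TMM scaling, the quasi-likelihood test and no covariates, and the standard error was the log2 fold change divided by the square root of F. Ratios used a pseudocount of 0.5 and an exact permutation test over all 43758 divisions of the mice (smallest p 2.29e-05). Correlations used 100000 permutations. At these depths the spread between mice, with a common biological coefficient of variation of 0.194, sets the precision.

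Alternatives were RLE, upper-quartile and library-size scaling, filters of 1 count in any mouse or filterByExpr, DESeq2 1.42.0, limma-voom 3.58.1, 4 surrogate variables (sva 3.50.0), offsets on transcript length or GC content (lowess, span 0.3), pseudocounts, and leaving out each mouse. The tests were tried on simulated counts. The members and gene lists were chosen with earlier results of these data known. Named from the other lists were the called genes, at most 4 per list by size of change, and genes fixed by name. Cell type markers are named where called. The values of 1 gene of the cargo list are not reported here.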

Additional observations from a re-analysis of the deposited data

Results flagged for a closer look

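The log2 ratio of *Sec24d* to *Sec24a* counts in A226Y animal 29 was 0.187, far above the other A226Y mice, of which the next was at −0.36. The gap took up a share of 0.507 of the group's range, beside a critical value of 0.466. Over 38 such groups of values, chance gives this in about 5% of groups. Without animal 29 the difference between A226Y and WT mice in this ratio was 0.01 in place of 0.08 on the log2 scale.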

How the results depend on the processing

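No paired analysis was possible because the animal numbers are unique and the groups share none. With 4 surrogate variables, 50 genes were called over all genes, in place of 1910, and 0 coat genes higher, in place of 2, and the cause was not tested. Over the other ways of fitting, between 1575 and 2418 genes were called over all genes and 2 or 3 coat genes higher. With the GC correction these were *Sec13* and *Sec16a*. With 1 mouse left out, 1255 (without WT animal 14) to 2560 (without A226Y animal 29) genes were called, always 2 coat genes higher and 0 lower, and 0 to 3 ratios, where 1 was called with all mice. The call counts of ratios were 3 without WT animal 4 or A226Y animal 5, and 2 without WT animal 14 or A226Y animals 22, 23 or 29. Estimates near 0 changed sign. Library size as the only scaling gave 0.0321 for *Sec23b*, 0.0233 for *Sec24c* and 0.0439 for *Sec31a*, RLE size factors gave 0.000152 for *Sec31a*, the length correction gave 0.00739 for *Sec23b* and −0.0858 for *Sec24a*, the GC correction gave −0.0543 for *Sec24a*, 0.0040 for *Sec24c* and 0.0264 for *Sec31a*, and surrogate variables gave −0.0385 for *Sec24d*. With 1 mouse left out the ranges were −0.0404 to 0.0426 for *Sec23b*, −0.0175 to 0.0461 for *Sec24a*, −0.0438 to 0.0053 for *Sec24c*, −0.0264 to 0.0352 for *Sec31a*, −0.0635 to 0.00547 for the ratio *Sec24c*/*Sec24a* and −0.0568 to 0.0737 for *Sec24d*/*Sec24b*. For *Sec31a*/*Sec13* the range was −0.34 to −0.25, for *Sec23b*/*Sec23a* −0.31 to −0.22 and for *Sar1b*/*Sar1a* −0.27 to −0.19. The exon union as the length of a gene, an alternative chosen after seeing the data, moved the WT shares to 82.1% *Sec23a* and 17.9% *Sec23b*, to 25.9%, 8.64%, 35.9% and 29.5% for *Sec24a* to *Sec24d*, and to 10.6% *Sar1a* and 89.5% *Sar1b*.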

Other observations

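SEC13 is also a subunit of the nuclear pore and of the GATOR2 complex, which acts between amino acid sensors and mTORC1. Both lists were chosen after the values of *Sec13* had been seen and are given as description only. Of the 4 other GATOR2 genes tested, 1 was called higher, *Seh1l*, whose protein is the close relative of SEC13 in both complexes, which was 0.19 higher on the log2 scale (SE 0.06, edgeR adjusted p = 0.0384), and the median over the 4 was 0.15. It was 52.2 ± 5.30 CPM in A226Y (SD, n = 10) and 45.9 ± 1.504 CPM in WT mice (SD, n = 8). Of the 9 other genes of the Nup107 part of the nuclear pore, *Seh1l* included, 1 was called higher and 0 lower, with log2 fold changes from −0.11 to 0.23 and a median of 0.09. Over all genes 7.27% were called higher and 7.03% lower, and the called gene of both lists is the same, *Seh1l*.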
